A study of Mus musculus with 2 samples.

Results

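The 10 genes described here are non-Hox transcription factors that mark where a tissue comes from. They are Tbx15, Shox2, En1, Tcf21, Nr2f1, Irx3, Irx5, Pax2, Pax8 and Emx2, chosen by name, with earlier results of these data known, and not by a threshold on their values. All 10 were found among the 43346 mouse gene entries of both deposited gene tables. The RNA came from adipose tissue, and the labels give the donor as male, strain C57BL/6J, at 10 weeks, with no treatment or altered gene named. Polyadenylated RNA of 1 biosample was sequenced as 2 technical libraries. The labels therefore hold 1 group, no condition is compared with another, and the fat depot is not named in them. Library 2 was prepared at a later date than library 1, and an effect of that date cannot be told apart from any other difference between the 2 libraries.

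White fat depots keep a positional identity that is set in the embryo, and transcription factors of the T-box, homeobox and bHLH families differ between subcutaneous and visceral fat. Pax2, Pax8 and Emx2 are known for another structure, the Wolffian duct and the urogenital tract that forms from it. In males that duct becomes the epididymis and vas deferens. In mice the epididymal fat pad lies against the epididymis.

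The sums of expected counts were 19954869 in library 1 and 19256807 in library 2. Levels are given in TPM (a share of all transcripts that takes transcript length into account), always as library 1 and then library 2 unless the sentence says otherwise. Every SD is the technical spread between 2 libraries of 1 biosample, and 95% intervals are exact Poisson intervals that cover counting error only. Of all TPM, 51.7% in library 1 belonged to mitochondrial genes and nuclear copies of them, against 15.9% in library 2, which lowers the TPM of other genes more in library 1. With those genes taken out, 89.7 and 117.6 TPM remained for Pax8, 344 and 61.2 for Emx2, 8.45 and 28.9 for Pax2 and 4.68 and 25.8 for Tcf21. In bulk tissue, fewer cells of a type and less RNA per cell cannot be told apart.

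The 3 duct factors held most of the members' RNA. Pax2, Pax8 and Emx2 together reached 213.5 and 174.7 TPM, which was 98.1% and 86.8% of the TPM of all 10 members. The 3 factors of subcutaneous and dermal identity, Tbx15, Shox2 and En1, together reached 0.49 and 0.52 TPM, from 22 and 12 counts. Tcf21, the factor of visceral mesenchyme, lay between these groups. At 1 TPM or more in both libraries stood 5 of the 10 members (Emx2, Pax8, Pax2, Tcf21 and Nr2f1), against 57.1% of protein-coding genes. The share of members was near that background, and the members' levels spread to both ends of the scale.

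**Figure D1:**
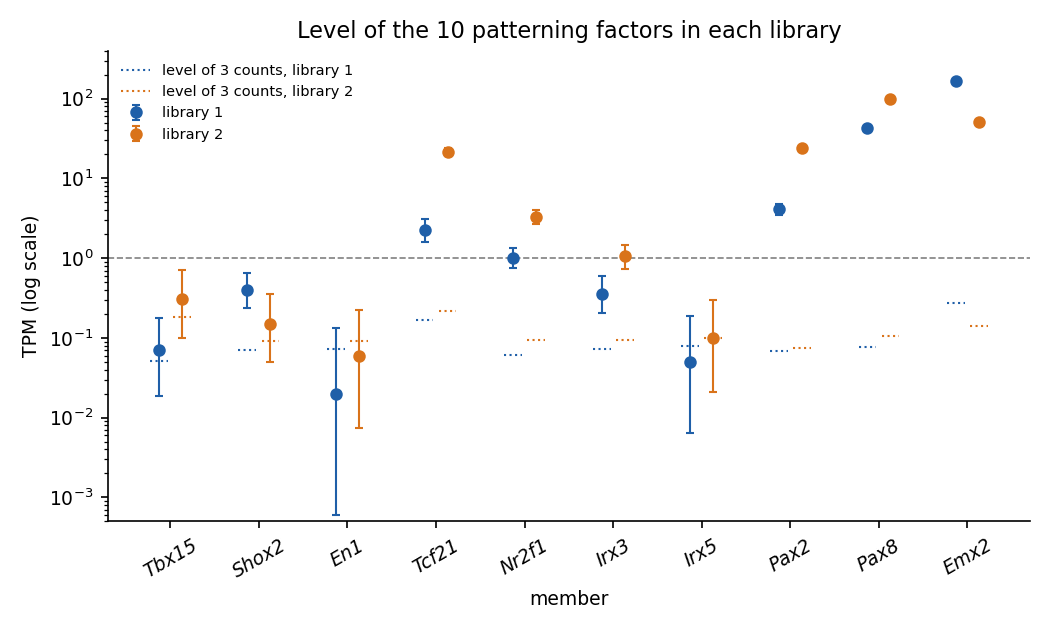
TPM of the 10 members (log axis) in library 1 (blue) and library 2 (orange), with 95% exact Poisson intervals on the counts and dotted marks at the level of 3 counts. The broken line is 1 TPM. Pax8 and Emx2 stand above 40 TPM in both libraries, while Tbx15, Shox2, En1 and Irx5 stand under 1 TPM in both.

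Emx2, a homeobox factor needed for the growth of the urogenital tract, had the highest mean of the members, 109 ± 81.1 TPM (SD, n = 2). It stood at 166 TPM in library 1 (1839 counts) and 51.5 TPM in library 2 (1080 counts), at the 98.2nd and 87.9th percentile of protein-coding genes. The gene (ENSMUSG00000043969) lies on chromosome 19, 59458372 to 59465357, plus strand, mm10. Library 1 was the higher library for Emx2, whereas 8 of the 10 members had a higher TPM in library 2. The transcripts that carried this level differed between the libraries. Emx2-203, a noncoding model of 422 bases, took 72.5% of the gene's TPM in library 1 and 21.6% in library 2, at 120.4 and 11.1 TPM. The deposited intervals of Emx2-203 were 102 to 126 TPM and 4.84 to 17.5 TPM and did not overlap; the file header gives no level for them. Emx2-201, the 2916-base model with the full reading frame, stood at 11.6 and 16.2 TPM, or 6.99% and 31.6% of the gene. Emx2-202, which skips the middle exon, stood at 34.1 and 24.1 TPM. Without Emx2-203 the gene was at 45.7 and 40.4 TPM (1354 and 1044 counts), so most of the difference in TPM lay in what was assigned to that short model. Of its 422 bases, 336 lie within the last exon of Emx2-201 and Emx2-202, and the counts of the 3 models are not whole. The split between the models is therefore an estimate, and reads left out with Emx2-203 may belong to the other models. The mean of Emx2 was then 43.0 TPM, below the 71.1 TPM of Pax8, so its first rank by mean rests on Emx2-203. By counts Emx2-203 held 26.4% and 3.29% of the gene, a smaller share than by TPM because its TPM divides by a short length.

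The exons of Emx2 differ in base composition, and the models that the 2 libraries favoured differ in which exons they hold. Exon 1 of Emx2-201 has 1253 bases at 63.7% GC, the middle exon 185 bases at 53.5%, and the last exon 1478 bases at 42.3%. Emx2-202 holds only the last 106 bases of exon 1, and Emx2-203 none of it. The sequences below show that grading along the reading frame, with the exon that only Emx2-203 holds. They are mm10 sequence from the GENCODE M21 transcripts, 5′ to 3′, and capitals mark unbroken runs of at least 5 G or C.
Emx2 coding start, exon 1, chr19:59459216-59459365, plus strand: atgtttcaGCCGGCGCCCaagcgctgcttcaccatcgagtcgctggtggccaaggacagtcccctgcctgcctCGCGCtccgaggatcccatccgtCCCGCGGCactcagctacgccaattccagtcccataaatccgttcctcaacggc
Emx2 middle exon, chr19:59461662-59461846, plus strand: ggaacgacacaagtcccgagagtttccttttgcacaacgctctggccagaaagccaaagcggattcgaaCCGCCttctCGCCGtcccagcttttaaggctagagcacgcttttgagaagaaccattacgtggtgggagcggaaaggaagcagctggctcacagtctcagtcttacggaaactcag
Emx2 coding part of the last exon, chr19:59463880-59464044, plus strand: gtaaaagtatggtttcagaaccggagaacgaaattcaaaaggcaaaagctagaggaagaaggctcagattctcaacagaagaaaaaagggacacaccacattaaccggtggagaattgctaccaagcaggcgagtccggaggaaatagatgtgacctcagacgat
Emx2-203 own exon, chr19:59462802-59462887, plus strand: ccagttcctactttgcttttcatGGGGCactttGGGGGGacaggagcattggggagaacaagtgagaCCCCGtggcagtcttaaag
The coding start holds 3 such runs in 150 bases at 63.3% GC, the middle exon 2 in 185 bases at 53.5%, and the last coding stretch none in 165 bases at 44.8%. The 86-base exon of Emx2-203 lies in the intron before the last exon of Emx2-201 and has 53.5% GC.

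Pax8, a paired-domain factor of the Wolffian duct, kidney and thyroid, had the highest level in library 2 and the next to highest in library 1. It stood at 43.3 TPM (1692 counts, 95% interval 41.3 to 45.4 TPM) and 98.9 TPM (2774 counts, 95.3 to 102.7 TPM), with a mean of 71.1 ± 39.3 TPM (SD, n = 2). These were the 91.6th and 94.1st percentile of protein-coding genes. Pax8 (ENSMUSG00000026976) lies on chromosome 2, 24420560 to 24475599, minus strand, mm10. The intervals of the 2 libraries did not overlap. The 2560-base coding model Pax8-201 took 95.5% and 86.3% of the gene's TPM. Pax8-205, an intron-retaining model of 345 bases, took 4.15% and 9.21% with deposited intervals of 0.261 to 5.16 TPM and 2.69 to 17.8 TPM, which overlap. The short coding model Pax8-207, of 626 bases, took 0 and 3.59%. Pax8 was thus carried by 1 full-length model in both libraries, unlike Emx2.

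Pax2, the closest relative of Pax8 among the members and a factor of the same duct, stood at 4.08 TPM (180 counts) and 24.3 TPM (979 counts). Its mean was 14.2 ± 14.3 TPM (SD, n = 2). The gene (ENSMUSG00000004231) lies on chromosome 19, 44756045 to 44837871, plus strand, mm10. Pax8 was higher than Pax2 by 10.6-fold in library 1 and 4.07-fold in library 2 (TPM ratios), and the counting intervals of the 2 genes did not overlap in either library. The libraries differed in the Pax2 models as well. Pax2-203, of 4358 bases, had 0 counts in library 1, with a deposited upper bound of 0.0941 TPM, and 352 counts in library 2 (6.3 TPM, deposited interval 4.95 to 6.94 TPM). It took 25.9% of the gene's TPM there. Pax2-201, of 3095 bases, took 74.2% and 56.1%, and Pax2-202 took 25.8% and 18.0%. Pax2-203 opens with an exon of 1392 bases at 67.0% GC, of which Pax2-201 holds only the last 43 bases. Pax2-203 also lacks a coding cassette exon of Pax2-201. This exon, chr19:44796628-44796696, plus strand, mm10, is printed in the same notation as the longest of the differences between these models inside the reading frame.
Pax2 cassette exon: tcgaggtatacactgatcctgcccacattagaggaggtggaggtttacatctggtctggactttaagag
It has 69 bases at 47.8% GC and holds no run of 5 G or C. Which end of the gene the counts of each library came from was not tested.

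**Figure D2:**
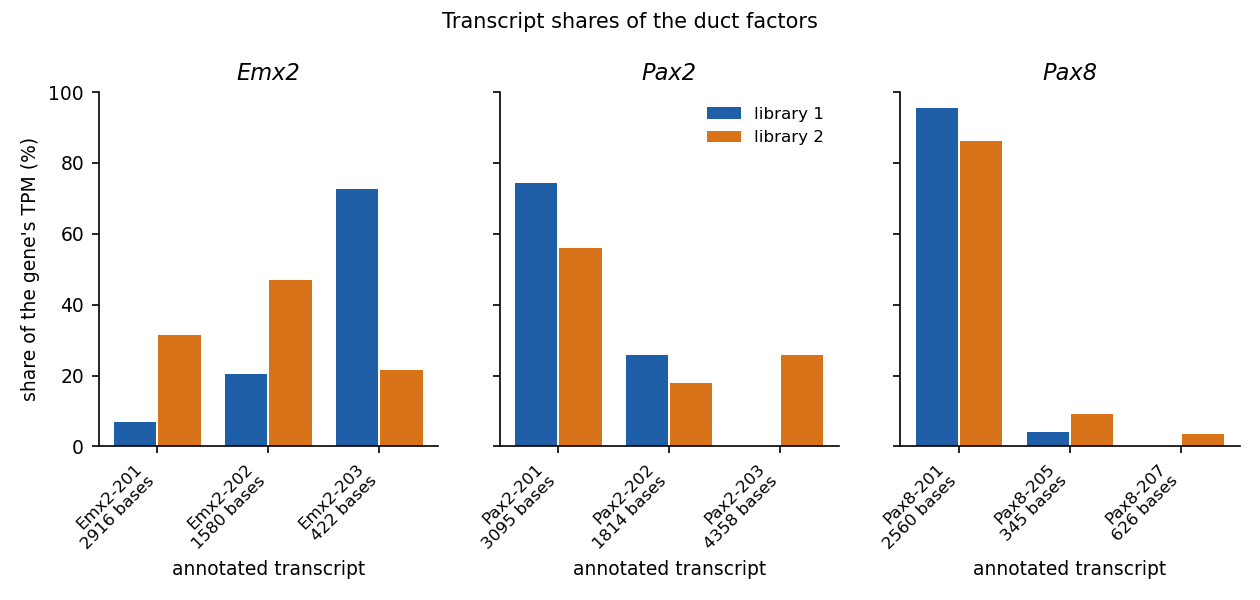
Share of each gene's TPM (%) taken by its annotated transcripts in library 1 (blue) and library 2 (orange), for models with 1% or more in either library. Emx2-203 takes 72.5% in library 1 and 21.6% in library 2, Pax2-203 appears in library 2 alone, and Pax8-201 leads in both.

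The duct factors were measured beside the RNA of an epididymal duct. All 8 markers of the epididymal duct list (among them Gpx5 and Spag11b, at 14177 and 15610 TPM and at 9861 and 10050 TPM) passed 1 TPM in each library, and summed to 41640 and 47880 TPM. Without mitochondrial genes and their copies that sum was 86220 and 56910 TPM, so its direction between the libraries turned. The epithelial list had 5 of 6 members at 1 TPM or more in both, and sums of 152 and 893.5 TPM (314.6 and 1062 without mitochondrial genes and copies). Its genes differed in how far they changed between the libraries. Krt18 stood at 17.0 and 237.8 TPM (352 and 3870 counts) and Krt8 at 9.65 and 180.3 TPM (267 and 3911 counts). Epcam stood at 77.5 and 143 TPM (2456 and 3556 counts), so the ratio of the sums does not hold for each gene. The part of duct cells in the level of Pax2, Pax8 and Emx2 was not tested. Markers of other organs that express Pax2 or Pax8 were measured as well. All 7 kidney markers stood under 1 TPM in both libraries, with a summed level of 0.2 and 2.0 TPM, and Slc12a1 and Nphs1 had 0 counts in both. Among the thyroid markers, Tg, the thyroglobulin gene, stood at 0.18 and 1.93 TPM. Tshr, a receptor that fat cells also express, stood at 42.1 and 28.1 TPM. Of the seminal vesicle and prostate list, Svs2, Svs4 and Pbsn had 0 counts in both libraries. All 8 adipocyte markers passed 1 TPM in each library, with sums of 6695 and 10900 TPM, so markers of fat were abundant in the same RNA.

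Regulators that work with the duct factors were present at a range of levels. Of 19 duct and urogenital regulators, 14 passed 1 TPM in each library, and the medians were 4.62 and 10.1 TPM. Ehf, an ETS factor of epithelia, led them at 81.1 and 55.1 TPM. Foxi1, the factor of proton-pumping epithelial cells, stood at 19.2 and 30.8 TPM. Of 10 genes of duct signalling, 5 stood at 1 TPM or more in both. Gfra1, a co-receptor for GDNF, led them at 64.3 and 89.7 TPM, beside Fgfr2 at 35.2 and 41.0 TPM and the matrix protein gene Npnt at 11.3 and 13.1 TPM. Fgfr2 had a count in library 2 that was not whole, so reads may be shared with another entry and its level is uncertain. These lists describe the tissue and were not compared with the members by a test.

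Tcf21, a bHLH factor of visceral mesenchyme that marks progenitors of visceral white fat, was the highest of the depot factors. It stood at 2.26 TPM (40 counts, 95% interval 1.61 to 3.07 TPM) and 21.7 TPM (302 counts, 19.3 to 24.3 TPM), with a mean of 12.0 ± 13.8 TPM (SD, n = 2). The gene (ENSMUSG00000045680) lies on chromosome 10, 22817281 to 22820174, minus strand, mm10, and all of its counts were in Tcf21-201. It lay at the 50.9th and the 73.4th percentile of protein-coding genes, the widest gap between libraries among the members. Markers of adipose stroma, the cells in which Tcf21 is known, summed to 1359 and 1321 TPM (2815 and 1570 without mitochondrial genes and copies), and their part in its level was not tested. In library 1 Tcf21 lay below Pax2 with intervals that did not overlap, and in library 2 the intervals of Tcf21 and Pax2 overlapped. Nr2f1, an orphan nuclear receptor of the COUP-TF family, stood at 1.01 TPM (50 counts) and 3.30 TPM (104 counts). Nr2f1 (ENSMUSG00000069171, chromosome 13, 78188973 to 78199757, minus strand, mm10) ranked next below Tcf21 in both libraries. Its relative Nr2f2 stood higher, at 30.3 and 25.1 TPM.

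The factors of subcutaneous and dermal identity were close to the level of a few counts. Shox2, a homeobox factor of limb and subcutaneous fat, had 17 and 5 counts, or 0.40 and 0.15 TPM. Tbx15, a T-box factor of subcutaneous fat and skeletal muscle, had 4 and 5 counts, or 0.07 and 0.31 TPM. En1, a homeobox factor of the dermis and of embryonic progenitors of brown fat, had 1 and 2 counts, or 0.02 and 0.06 TPM. The level of 3 counts was 0.0720 and 0.0919 TPM for En1, so En1 lay under it in both libraries and its absence cannot be shown at this depth. The 3 genes have the identifiers ENSMUSG00000027833 (Shox2, chromosome 3, 66971727 to 66981771, minus strand), ENSMUSG00000027868 (Tbx15, chromosome 3, 99240381 to 99354259, plus strand) and ENSMUSG00000058665 (En1, chromosome 1, 120602418 to 120607992, plus strand). The 4.43-fold higher TPM of Tbx15 in library 2 came with 1 more count. In that library 1.43 of its 5 counts were assigned to a 653-base model, Tbx15-202, which took 74.4% of the TPM. The TPM of Tbx15 therefore does not follow its counts. The skeletal muscle list, where Tbx15 is also known, had sums of 0.51 and 17.4 TPM, and Acta1, which encodes skeletal muscle actin, had 2 and 237 counts.

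Irx3 and Irx5, neighbouring homeobox genes of the Iroquois family on chromosome 8 that are known from the obesity-associated locus of Fto, were low as well. Irx3 (ENSMUSG00000031734, chromosome 8, 91798525 to 91802067, minus strand, mm10) had 15 and 34 counts, or 0.36 and 1.05 TPM. Irx5 (ENSMUSG00000031737, chromosome 8, 92357625 to 92376286, plus strand, mm10) had 2 and 3 counts, or 0.05 and 0.10 TPM. The counting intervals of the 2 genes did not overlap in either library, 0.204 to 0.600 TPM against 0.00639 to 0.191 TPM in library 1 and 0.729 to 1.47 TPM against 0.0208 to 0.295 TPM in library 2. Fto itself, an RNA demethylase gene of the same region, stood at 27.4 and 37.3 TPM, and Rpgrip1l, a ciliary gene beside it, at 4.43 and 3.37 TPM. The noncoding gene Crnde, which starts 1505 bases from the start of Irx5, had 5 and 11 counts. Of the other Iroquois genes, Irx2 at 7.91 and 6.23 TPM and Irx1 at 0.21 and 5.87 TPM, had higher means than Irx3.

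The order of the members changed little between the libraries. Emx2 and Pax8 took the top places in both and changed places with each other. Pax2, Tcf21 and Nr2f1 followed in that order in both, and Irx5 and En1 were the lowest in both. In library 1 the counting intervals of Shox2 and Irx3 overlapped, as did those of Tbx15 and Irx5, and of Irx5 and En1. In library 2 the neighbours with overlapping intervals were Pax2 and Tcf21, Tbx15 and Shox2, Shox2 and Irx5, and Irx5 and En1. A difference between neighbours was not tested, and overlap does not show that their levels are equal. All other neighbours had counting intervals that did not overlap. The same genes compared across libraries of 1 biosample say nothing of the spread between animals.

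In the Pax and Emx families the members were far above their relatives, and in the T-box, paired-like, Nr2f and Iroquois families a relative was higher. In the bHLH family the order depended on the library, with Tcf24 at 4.12 and 4.22 TPM and Tcf21 at 2.26 and 21.7 TPM. En2, like En1, was near 0, with 0 and 1 counts. Of 26 related genes, 7 stood at 1 TPM or more in both libraries and 6 had 0 counts in both. Among 7 other Pax genes, none reached 3 counts in a library, and Pax1, Pax3, Pax4, Pax6 and Pax7 had 0 counts in both. Pax5 was listed at 1.33 TPM in library 2 from 2 counts. Emx1 had 0 and 2 counts beside the 1839 and 1080 of Emx2. Prrx1, a homeobox gene of mesenchyme related to Shox2, stood at 66.1 and 36.3 TPM, far above Shox2. Tbx22 stood at 8.53 and 4.19 TPM and Tbx18 at 0.96 and 1.16 TPM, both above Tbx15 in each library. Nr2f6 stood at 1.94 and 38.3 TPM. Of 16 other fat depot regulators, 9 passed 1 TPM in each library, led by Prrx1, Wt1, a factor of mesothelium and visceral fat, at 9.74 and 8.84 TPM, and Meis1 at 8.07 and 10.0 TPM. Meis1 had counts that were not whole, so its level is uncertain. Zic1 and Lhx8, markers of brown fat progenitors, had 0 counts in both libraries. Other regulators of brown fat in the same list were present, with Ebf2 at 6.66 and 6.04 TPM and Prdm16 at 1.15 and 6.21 TPM.

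**Figure D3:**
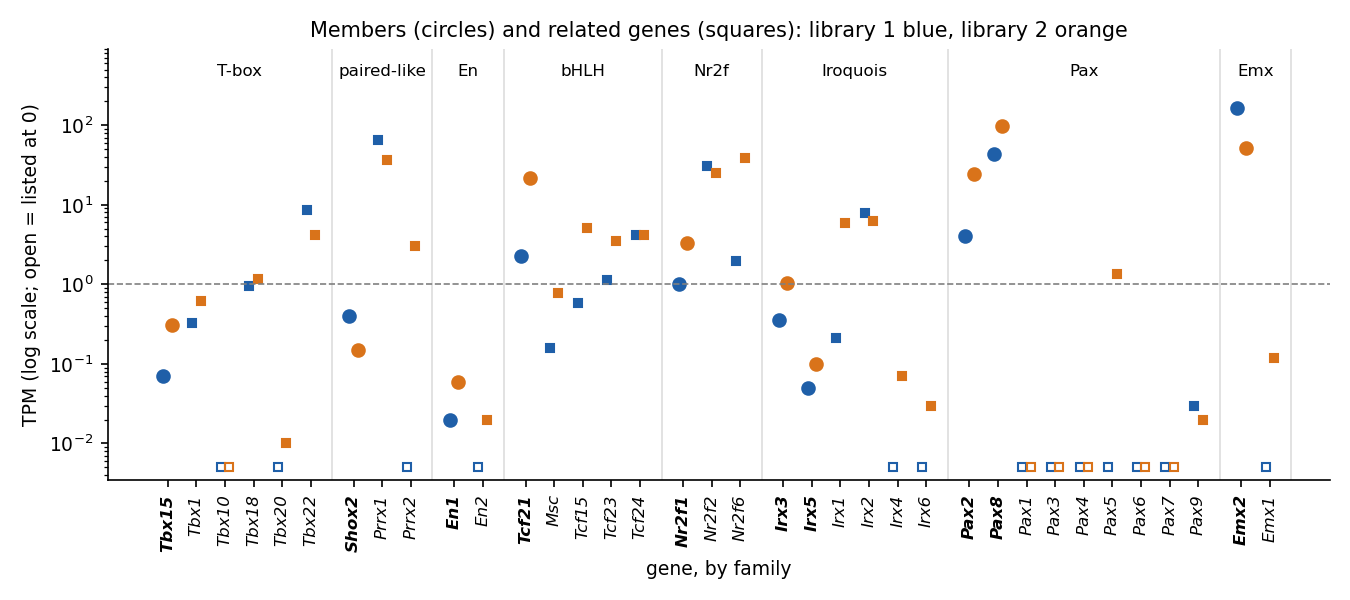
TPM (log axis) of the members (circles, bold names) and related genes (squares) by family, in library 1 (blue) and library 2 (orange); open marks are genes listed at 0. Pax2, Pax8 and Emx2 lead their families, while Shox2, Tbx15 and Irx3 stand below Prrx1, Tbx22 and Irx2.

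The 2 libraries were compared by counts on the TMM scale, which adjusts for library size and makeup, by an exact binomial test over 18275 genes with at least 10 counts in sum and Benjamini-Hochberg adjustment. This test compares 2 libraries of 1 biosample and covers counting error only. A gene was called at an adjusted p under 0.05 with at least a 2-fold ratio, and 48.5% of all tested genes were called, 30.1% higher and 18.4% lower in library 2. Higher calls made up 62.1% of all calls on this scale and 85.2% with total counts as the scale, which shifts every log2 ratio by 0.44. Of the 10 members, 7 could be tested, and Tbx15, En1 and Irx5 had too few counts. Tcf21 and Pax2 were called higher in library 2, Shox2 and Emx2 lower, and Nr2f1, Irx3 and Pax8 were not called. With 4 of 7 called, the members' share was near the background. Their median log2 ratio was 0.66, against 0.02 over all tested genes.

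Tcf21 had the highest ratio of the tested members, a log2 ratio of 2.51 (95% exact interval 2.05 to 3.04; exact binomial test, adjusted p = 2.04e-36). Pax2 followed with 2.05 (1.83 to 2.29; exact binomial test, adjusted p = 1.68e-90). Pax8 stood at 0.33 (0.24 to 0.41), under 2-fold on this scale, against a TPM ratio of 2.29. Emx2 was lower in library 2 by a log2 ratio of -1.15 (-1.26 to -1.05; exact binomial test, adjusted p = 4.19e-100). Without Emx2-203 (an alternative added once the values were known), the ratio of Emx2 was -0.76 and no longer reached 2-fold, and with total counts as the scale it was -0.72. Shox2, at 17 and 5 counts, had -2.06 (-3.95 to -0.66; exact binomial test, adjusted p = 0.0037), and the upper end of that interval is short of 2-fold. Nr2f1 had 0.66 (0.17 to 1.19) and Irx3 0.77 (-0.12 to 1.78). With total counts as the scale, both of these passed 2-fold, at 1.10 and 1.21.

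GC content, pooled over all annotated transcripts of a gene, moves with these ratios across all genes. The members span 49.1% to 62.4%, with a median of 54.4% against 49.7% over all tested genes. The median log2 ratio was -0.43 over genes between 45% and 50% GC, 0.77 between 50% and 55%, 2.54 between 55% and 60% and 4.14 from 60% upward, among genes with 100 counts or more on average. None of the 7 tested members lay within the 25th to 75th percentile of the genes within 1 percentage point of its own GC content. Tcf21, at 50.7% GC, lay above that range, which was -0.16 to 0.70. The other 6 lay below theirs. Pax2, at 60.2% GC, had 2.05 where genes of like GC had 2.69 to 4.86. Pax8, at 54.6%, had 0.33 where they had 0.89 to 2.19, and Nr2f1, at 54.2%, had 0.66 where they had 0.73 to 2.01. Emx2, at 49.1%, had -1.15 where they had -0.46 to 0.24. Irx3, at 62.4%, had 0.77 where 93 such genes had 2.58 to 5.50, and Shox2, at 50.9%, had -2.06 where they had -0.12 to 0.77. Shox2, Irx3 and Nr2f1 had fewer counts than the genes they are set beside, and the interval of Nr2f1, 0.17 to 1.19, reached into the range of those genes. The model Nr2f1-201, to which 40.59 and 89.1 of the counts of Nr2f1 were assigned, has 60.2% GC. The place of Nr2f1 among genes of like GC content thus depends on the pooling of its models.

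With the median ratio of genes of like GC taken out, 17.7% of genes were called, and the directions of 4 members turned. Pax2 went from 2.05 to -1.56, Pax8 from 0.33 to -1.18, Irx3 from 0.77 to -3.45 and Nr2f1 from 0.66 to -0.72. Tcf21 kept its direction and its call at 2.18, as did Emx2 at -1.02 and Shox2 at -2.39. On that scale 1 member was called higher and 5 lower. For Pax2, Pax8, Irx3 and Nr2f1 the direction thus depended on whether the GC trend was taken out. The part of GC content in the members' ratios was not tested.

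**Figure D4:**
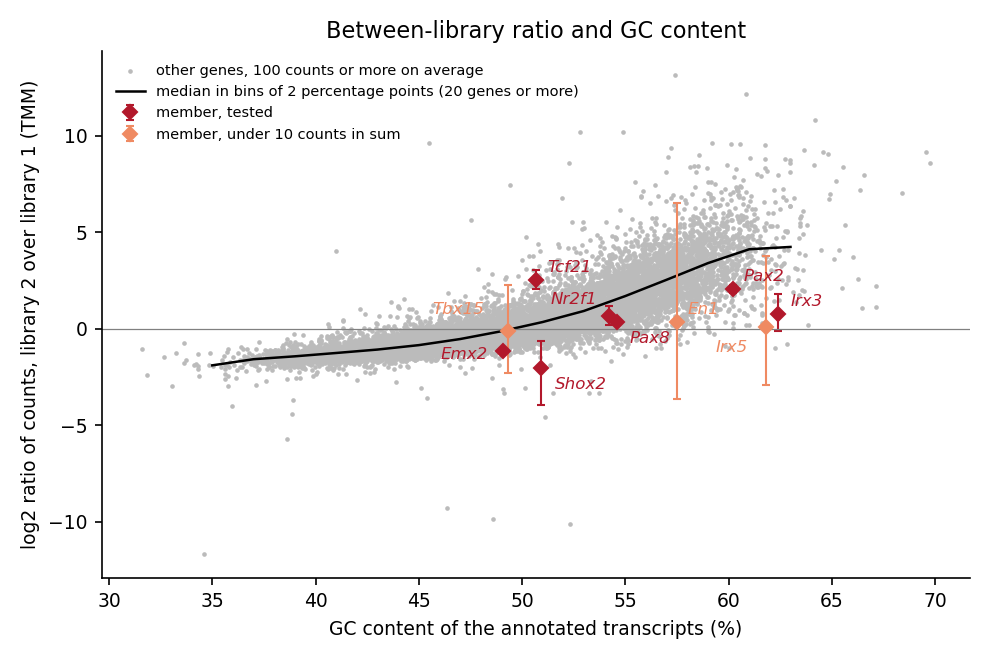
Log2 ratio of counts of library 2 over library 1 (TMM scale) against the GC content (%) of the annotated transcripts. Grey points are other genes with 100 counts or more on average, the line is their median, and diamonds are members with 95% exact intervals on counts. Tcf21 lies above the line at 2.51, and the other 6 tested members (dark diamonds) lie below it.

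The difference in composition is visible in the members of lowest and highest pooled GC content. The coding start of Emx2, printed above, comes from the member of lowest pooled GC content. That of Irx3, the member of highest GC content, is chr8:91801091-91801240, minus strand, mm10, from GENCODE M21, with capitals again at runs of at least 5 G or C.
Irx3 coding start: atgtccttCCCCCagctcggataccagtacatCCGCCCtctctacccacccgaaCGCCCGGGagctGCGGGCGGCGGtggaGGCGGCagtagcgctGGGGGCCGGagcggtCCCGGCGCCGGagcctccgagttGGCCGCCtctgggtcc
It holds 8 runs in 150 bases at 73.3% GC, against 3 at 63.3% in Emx2. Exon 1 of Emx2 is thus GC-rich although the gene has the lowest GC content of the members when annotated transcripts are pooled. By single models it is not the lowest, since Emx2-201 alone has 52.2% GC, against 48.2% in Tbx15-201 and 47.3% in Shox2-203.

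Start sites of the members were rich in CpG in some members and not in others. RefSeq windows of 300 bases (GRCm38.p6, 250 before to 50 after a start) were matched for 8 members; Tbx15 and Irx5 were not. The median CpG count was 14 over 11 windows of the members and 7 over 32851 windows in all. En1, which had 1 and 2 counts, had 23 CpG in its window, and 21.5% of all windows held as many. Pax8, the highest member in library 2, had 7 CpG, and 52.1% of all windows held as many. Emx2 had 26. Shox2 alone held the letters TATAAA on either strand, which 13.6% of all windows hold.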

How the data were processed

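Polyadenylated RNA of 1 biosample was measured in 2 technical libraries, after extraction with a kit for lipid-rich tissue, per the labels. Per a deposited text file, the authors used mm10 and annotation M4. The aligner is not given in the sources used here, nor is the quantifier. The authors deposited expected counts (estimates that need not be whole), TPM and FPKM per gene, posterior means of counts and TPM, and each transcript's percent of its gene's TPM, per the file headers. Entries without a mouse gene identifier held 0 and 2 counts and were left out. Symbols, positions, exons, sequences and GC content came from GENCODE M21, a later release on the same assembly, which matched 42462 of 43346 identifiers. GC content pools all annotated transcripts of a gene. All 10 members had whole counts (within 0.005) and a posterior SD of 0, so no split of a member's reads with another entry is seen. Use of strand in counting is not given in the sources used here. Protein sequences were not used here, so the planned protein comparison was not made.

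Expected counts were rounded. The test of genes with at least 10 counts in sum was an exact binomial test, two-sided, with TMM sizes (edgeR 4.0.16), since 1 library a side leaves no residual degrees of freedom. Log2 ratios add 0.5 to counts. The GC trend was the median ratio in 40 bins of GC content. Scripts were tested on simulated data. DESeq2 1.42.0 gave an alternative scaling; R 4.3.3, Python 3.11.15, scipy 1.17.1 and pandas 2.3.3 were used.

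Members and lists were chosen with earlier results of these data known. Named genes were taken from the members, the 3 genes that lead each list by mean TPM (not all of which are named), and genes that overlap a member or start within 5 kb of its start and reach 1 TPM. Genes named beyond this rule (related genes, Ebf2 and Prdm16, and marker genes with few or 0 counts) were chosen after their values were seen. Some genes of the lists are not reported here. The lists of clear cells, endothelium, smooth muscle, macrophages, nerve and brown fat are given in the closing section.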

Additional observations from a re-analysis of the deposited data

How the results depend on the processing

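Among alternatives that change the count of members, removal of the GC trend gave 1 member higher and 5 lower in library 2 and, over all genes, 1728 higher and 1484 lower in place of 5504 and 3361. Scaling to total counts shifted every log2 ratio by 0.44, gave 4 members higher and 1 lower and 1176 genes lower, and moved the share of calls that were higher from 62.1% to 85.2%. With at least 100 counts on average, where Shox2, Irx3 and Nr2f1 were no longer tested, 2 members were higher and 1 lower, beside 3708 genes higher and 2290 lower. Under GC trend removal Nr2f1 stood at -0.72, Irx3 at -3.45, Pax2 at -1.56 and Pax8 at -1.18. Of 68 alternative ratios of the tested members, 60 kept direction and side of the threshold. At a limit of 5 TPM in both libraries 2 members were detected, and at more than 3 counts 8; with each library alone, 5 to 6. The median member level of 1.43 TPM was 0.705 in library 1 alone and 2.175 in library 2 alone, and 2.00 without mitochondrial genes and copies. The mean levels of Tbx15 and Shox2 were 0.74 and 0.70 in posterior mean TPM, against 0.19 and 0.275 in TPM. No paired analysis was possible because the labels hold 1 group. Depth limits En1 and Irx5, which had at most 3 counts in a library.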

Other observations

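Genes that overlap a member on the other strand were counted separately. Emx2os, antisense to Emx2 with 264 shared bases of gene span, had 209 and 153 counts, or 2.53 and 2.36 TPM. A830082K12Rik, antisense to Nr2f1 over 1741 bases, had 56 and 29 counts, against 50 and 104 for Nr2f1. Rsrc1, whose first 382 bases overlap the start of Shox2, had 725 and 577 counts. Irx3os had 0 and 2 counts and Gm13415, which spans the start of Pax8, 2 and 0. If counting did not use strand, reads of such pairs could not be told apart where their exons overlap.

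Markers of other cells were measured in the same RNA. Sums of TPM, as library 1 and library 2, were 1359 and 1321 for adipose stroma, 62.9 and 126.4 for mesothelium, 98.8 and 158.9 for endothelium, 142.5 and 652.5 for smooth muscle, 43.5 and 229.5 for macrophages, 104.3 and 114.7 for clear cells, and 4.21 and 6.42 for nerve. Brown adipocyte markers summed to 0.99 and 18.1 TPM, of which Cox8b gave 0.33 and 16.2, while Ucp1 had 2 and 4 counts. The direction of such sums depended on the scale. Without mitochondrial genes and their copies, the sums for adipocytes (13860 and 12950 TPM), endothelium (204.6 and 188.9), clear cells (215.9 and 136.3) and nerve (8.72 and 7.63) turned to higher in library 1, as did that of the epididymal duct. Those for mesothelium (130.2 and 150.2), smooth muscle (295.0 and 775.5) and macrophages (89.96 and 272.8) were higher in library 2 on both scales. Neither scale takes out the GC trend. By counts, 3 of 4 macrophage, 2 of 6 mesothelium and 2 of 4 smooth muscle markers were called higher, beside 30.1% of all tested genes. With the trend taken out these were 0, 0 and 2, and 1 macrophage marker was called lower, where 17.7% of genes were called. In mesothelium 1 marker was called lower with and without the trend.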
